A study of Mus musculus with 12 samples.

Results

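The glucocorticoid response genes described here are the glucocorticoid receptor gene Nr3c1 and 9 of its well known target genes, Fkbp5, Tsc22d3, Sgk1, Zbtb16, Klf9, Pdk4, Errfi1, Mt1 and Mt2. They were chosen by symbol, and their Ensembl identifiers were matched to names through the Gencode M39 annotation of GRCm39, so that 10 of 56065 genes in the count table were followed. All 10 passed the low-count filter, under which 17893 genes were tested. RNA was sequenced from whole submandibular glands (SMGs) of C57BL/6J wild-type (WT) mice and of C57BL/6J-Pou2f3em1Cbwi/J (Pou2f3-/-, KO) mice from the Jackson Laboratory, with 3 mice in each of 4 groups (WT female, KO female, WT male and KO male). Mice were 8 weeks old, no treatment is named for any group, and all were killed with CO2 followed by exsanguination. The time of day of collection was not given in the sources used here. The allele is a global knockout of the transcription factor that tuft cells need, so tuft cells are lost in other organs as well as in the SMG, and effects arising outside the gland cannot be told apart from effects arising inside it.

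Glucocorticoids are adrenal steroids that enter cells and bind the glucocorticoid receptor, which is held ready by heat shock proteins and then moves to the nucleus to switch target genes on or off. Some of those targets damp the response itself, others carry salt transport, circadian, metabolic or metal-binding functions. Blood glucocorticoid levels rise and fall with the daily rhythm and rise with handling or stress, and several of the targets are therefore read as markers of recent hormone exposure. In the rodent SMG, secretory acini lead into ducts, and the granular convoluted tubules of the duct are much more developed in males.

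Sequencing depth was ample for these genes. Library totals ran from 47032175 to 67882207 estimated counts, and the lowest count of any member in any library was 133, for Mt2. Pou2f3 itself was at 0 to 0.142 CPM (counts scaled to library size, with edgeR's TMM adjustment) across the 12 libraries, 10 counts at most, so it did not check the genotype labels. Of the 6 tuft markers examined, Gnat3 and Il25 were at 0 in every library and Trpm5 had 4 counts at most, while Dclk1 and Avil were expressed. Avil was called higher in KO females (log2 fold change 2.06, adjusted p = 0.014 in edgeR). That call was lost without the 3 adipocyte-rich libraries named below. The 6 markers summed to 18.8 to 22.1 CPM in KO females against 15.5 to 19.7 CPM in WT females. Acinar markers summed to 77912 to 596376 CPM and granular convoluted tubule markers to 4369 to 92311 CPM, so that defining markers of the labelled tissue were present in every library. One WT female (replicate 3) and KO male replicates 2 and 3 held more adipocyte marker RNA than the other 9 libraries, with summed levels of 43.8, 33.98 and 17.4 CPM against 1.45 to 5.81 CPM, and the calls named here that were lost without them are given beside the results. In whole tissue, fewer cells of a type and less RNA per cell cannot be told apart.

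The sequences that carry the receptor's recognition motif are shown first, because they separate the members that hold it near their start from those that do not. The motif was searched on both strands within 5000 bases of the annotated start of each gene's main transcript in GRCm39, as the full palindrome (AGAACA, any 3 bases, TGTTCT) and as the shorter core it contains (ACA, any 3 bases, TGTTC). The palindrome occurred near the start of 27 of 21599 protein-coding genes (0.125%), and Sgk1 was the only member among them. The core occurred near 31.7% of protein-coding genes and near 4 of the 10 members (Fkbp5, Sgk1, Errfi1 and Mt1). The Sgk1 stretch lies at chr10:21869485-21869684 on the plus strand, inside the gene but outside its exons, with the palindrome 965 bases before the start in capitals. The Mt1 stretch covers the 250 bases before its start, chr8:94905460-94905709 on the plus strand, with the core at 85 bases before the start and a metal response element at 16 bases before the start in capitals. The Fkbp5 stretch, written along the gene's minus strand, lies at chr17:28702287-28702316 within the gene and outside its exons, and the core in capitals is read there from the opposite strand. The Errfi1 stretch lies on the plus strand at chr4:150934643-150934672, outside the gene, with the core in capitals.
Sgk1: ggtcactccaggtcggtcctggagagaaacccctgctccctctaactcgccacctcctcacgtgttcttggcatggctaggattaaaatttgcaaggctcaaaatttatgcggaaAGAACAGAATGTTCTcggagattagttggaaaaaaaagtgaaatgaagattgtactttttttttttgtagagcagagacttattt
Mt1: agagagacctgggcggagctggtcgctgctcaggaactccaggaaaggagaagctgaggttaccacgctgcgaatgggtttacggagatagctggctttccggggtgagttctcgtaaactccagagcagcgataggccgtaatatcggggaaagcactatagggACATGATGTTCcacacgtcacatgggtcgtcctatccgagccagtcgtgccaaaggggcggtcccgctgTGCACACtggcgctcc
Fkbp5: acacagtagGAACACCCTGTggtgtgcttt
Errfi1: ataggaaatACAGTGTGTTCttcggacaca

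Within 300 bases of the start, the core was present in 1.46% of protein-coding genes and in 1 member, Mt1. Nr3c1, Tsc22d3, Zbtb16, Klf9, Pdk4 and Mt2 had no match to the core within 5000 bases, which says only that these letters are not in that window. The metal response element, to which the zinc sensor MTF1 binds, was searched as TGCGCNC and TGCACNC on both strands within 300 bases of the start. Mt2 had 7 matches and Mt1 had 5, numbers that 0.102% and 0.87% of protein-coding genes reached or passed, whereas at least 1 match occurred in 47.1% of protein-coding genes. Of the 7 Mt2 matches, those 109 and 14 bases before the start lie at chr8:94899012-94899041 and chr8:94899107-94899136, and are shown in capitals because they stand upstream of the start as in Mt1.
Mt2 at 109 bases before the start: agcatcgcctcTGCACCCggcccctcgggc
Mt2 at 14 bases before the start: cgcagacccttTGCGCTCagctcctttgct
The E-box CACGTG, bound by the clock factors CLOCK and BMAL1, was found within 300 bases of the start in 12.2% of protein-coding genes and in Fkbp5 and Klf9 among the members. The D-box TTANNTAA, bound by DBP and its relatives, was found in 9.41% of protein-coding genes and in no member.

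**Figure D1:**
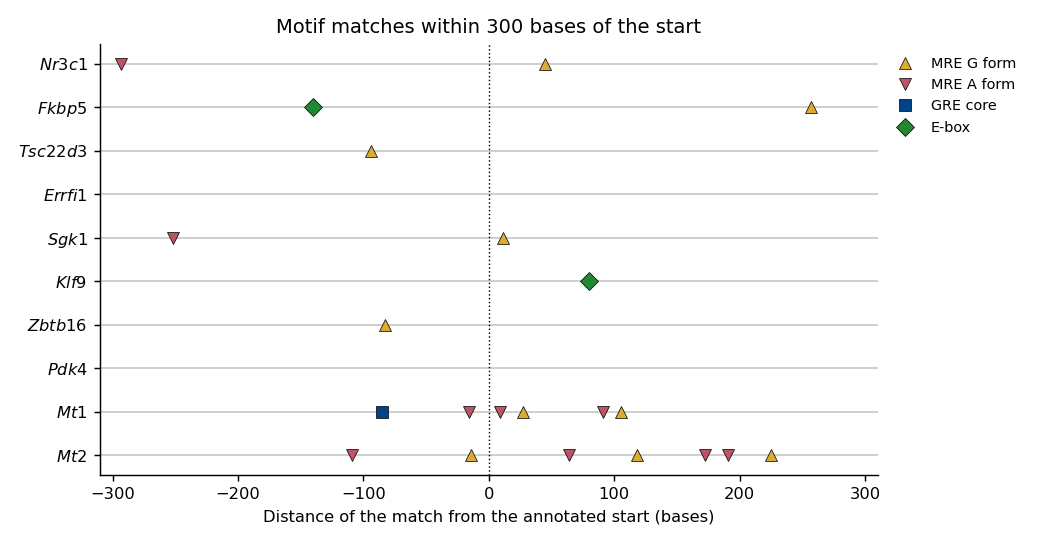
Positions of motif matches within 300 bases of the annotated start of each member, as distance in bases on the horizontal axis with 1 line per gene. Metal response elements (MRE, triangles) are densest at Mt2 and Mt1, with 7 and 5 matches, and the receptor core (GRE core, square) appears at Mt1 alone.

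Compared per kilobase of the main transcript, which allows levels to be set side by side between genes, the members differed widely within a gland. In WT females, Klf9 had the highest level at 21.0 ± 1.52 CPM per kilobase (SD, n = 3), followed by Mt1 at 17.2 ± 0.950, Sgk1 at 12.9 ± 1.29 and Tsc22d3 at 11.02 ± 1.60 on the same scale. Nr3c1 (7.73 ± 1.12), Errfi1 (6.66 ± 0.668), Mt2 (6.18 ± 0.562) and Fkbp5 (5.58 ± 0.724) formed a middle group, in which neighbours in the order differed by less than the larger of their SDs. Pdk4 (1.89 ± 1.19) and Zbtb16 (1.13 ± 0.799) were lowest and did not differ beyond their spread. In WT males the order changed, with Sgk1 first at 94.0 ± 27.6 CPM per kilobase, then Mt1 at 38.1 ± 3.89 and Fkbp5 at 30.8 ± 6.36, while Klf9 was at 10.3 ± 1.18. KO glands kept the same leading genes as WT glands of their sex, with Klf9 and Mt1 at 14.999 and 14.8 CPM per kilobase in females and Sgk1 at 68.3 ± 14.0 CPM per kilobase in males.

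**Figure D2:**
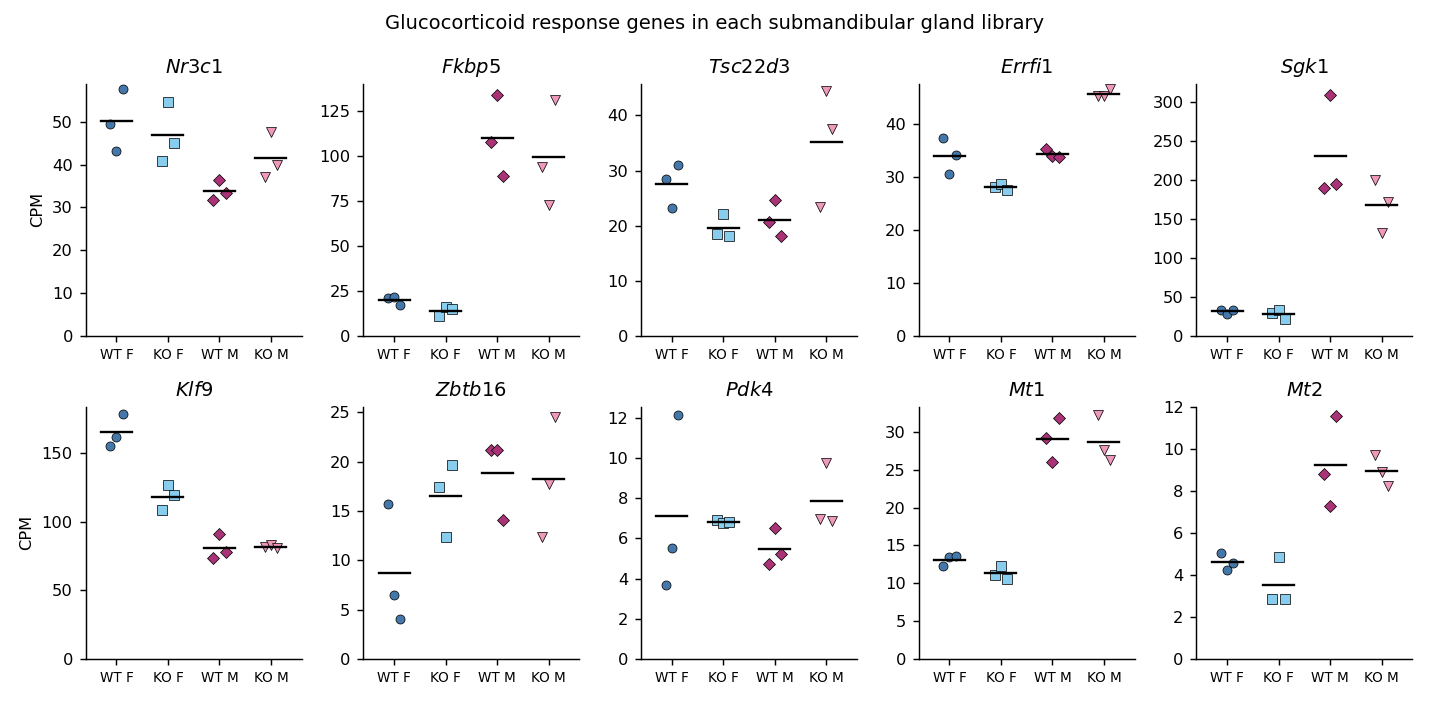
Expression of each member in CPM (vertical axis, from 0) in every library, grouped as WT female, KO female, WT male and KO male. Points are mice and lines are group means, and Fkbp5, Sgk1, Mt1 and Mt2 stand higher in all 6 male libraries than in all 6 female libraries.

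To ask whether loss of Pou2f3 was accompanied by a change in the glucocorticoid response, KO glands were first compared with WT glands of females. Of the 10 members, 2 were called lower in KO females (Klf9 and Errfi1) and none was called higher, by edgeR's quasi-likelihood test at a Benjamini-Hochberg adjusted p under 0.05. Over all genes the same rule called 36.9% of genes, with 19.3% of all genes lower and 17.6% higher, so the share among the members was not above the background. The median log2 fold change was -0.24 over the members, 0.03 over all genes tested and -0.08 over the 14181 protein-coding genes tested. Of the members 9 of 10 had a value below 0, while 6277 of the 14181 protein-coding genes had a value above 0. Of those 14181 genes 3386 were called lower and 2080 higher. In 5 members (Fkbp5, Tsc22d3, Klf9, Errfi1 and Mt1) every KO female lay below every WT female, which was so for 24.1% of all genes. For Mt1 the lowest WT female and the highest KO female were both at 12.3 CPM after rounding.

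The same comparison in males called none of the 10 members with edgeR, and over all genes it called 0.235%. At an unadjusted p under 0.05 edgeR listed 3 members (Nr3c1, Tsc22d3 and Errfi1), each with a higher value in KO males, and DESeq2 called 2 of them, Tsc22d3 (adjusted p = 0.019) and Errfi1 (adjusted p = 1.7e-04). Over all genes 2056 of 17893 had an unadjusted p under 0.05 in edgeR. DESeq2, run without the low-count filter, called 388 of 30808 genes. In Nr3c1, Pdk4 and Errfi1 every KO male lay above every WT male, which was so for 6.51% of all genes. The number of genes called in males was unsteady, at 42 with all libraries and 635 without KO male replicate 1.

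Whether the genotype difference itself differed between the sexes was tested as an interaction, coded as the KO minus WT difference in females minus that in males. It was called for 3 members, Tsc22d3, Klf9 and Errfi1, all with a negative value, and for 25.7% of all genes, 12.4% with a negative value. With the 3 adipocyte-rich libraries left out together 0 of 19381 genes passed in edgeR and 4529 had an unadjusted p under 0.05. In that edgeR fit Klf9 was at -0.47 (-0.50 with all libraries, adjusted p = 0.21), Errfi1 at -0.71 (-0.68 with all libraries, adjusted p = 0.094) and Tsc22d3 at -0.58 (-1.22 with all libraries, adjusted p = 0.19). In it KO males are 1 mouse that is assumed to vary like the other groups.

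Nr3c1, the receptor, was expressed at 49.4, 43.2 and 57.6 CPM in the 3 WT females and at 40.9, 54.7 and 45.1 CPM in the KO females. The WT males had 31.8, 36.3 and 33.2 CPM and the KO males 37.1, 47.6 and 39.96 CPM. All 3 WT males were below all WT females, whereas the 2 KO groups overlapped. The receptor transcript was 1.48-fold lower in WT males than in WT females (log2 fold change -0.57, SE 0.13, adjusted p = 0.0054 in edgeR). In KO glands the sex difference was -0.18 on the log2 scale (SE 0.13, adjusted p = 0.31) and did not pass. KO against WT gave log2 fold changes of -0.09 in females (adjusted p = 0.62) and 0.30 in males (adjusted p = 0.42), neither called in edgeR. Its interaction was called without KO female replicate 2 (-0.60, adjusted p = 0.039). Nr3c1 lies at chr18:39543598-39652474 on the minus strand.

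Of 22 genes for the chaperones and coregulators that hold, fold and assist the receptor, 8 fell in KO females and 1 rose in edgeR, 9 called in all, against 36.9% of all genes (19.3% lower and 17.6% higher). The falls with the smallest adjusted p in edgeR were in Fkbp4 (log2 fold change -0.75, adjusted p = 4.2e-04), Ptges3 (-0.94, adjusted p = 4.8e-04), Hsp90aa1 (-0.65, adjusted p = 0.0011) and Hspa8 (-0.96, adjusted p = 0.0022), which encode the co-chaperones FKBP52 and p23, the chaperone HSP90 alpha and the constitutive HSP70. In KO males 0 of the 22 were called by edgeR or by DESeq2 and 4 had an unadjusted p under 0.05 in edgeR. The interaction with sex was called for 8 of the 22, 7 of them below 0, against 25.7% of all genes (12.4% below 0), and for 0 of the 22 in edgeR without the 3 adipocyte-rich libraries, where 7 had an unadjusted p under 0.05. The list's median in females was -0.05 against 0.03 over all genes and -0.08 over protein-coding genes. Of 14181 protein-coding genes tested 3386 were called lower in KO females and 2080 higher. Among genes that set how much steroid reaches the receptor, Hsd11b1, whose enzyme regenerates active glucocorticoid, was higher in males than in females (log2 fold change 2.02 in WT, adjusted p = 0.0014, and 2.41 in KO, adjusted p = 3.4e-04 in edgeR), while Hsd11b2, which inactivates the hormone, was at 0.02 to 0.05 CPM in the group means and was not tested. The mineralocorticoid receptor gene Nr3c2 rose in KO females (log2 fold change 0.70, adjusted p = 0.0026 in edgeR).

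The first group of targets comprises genes whose products restrain signalling. Fkbp5 encodes FKBP51, a co-chaperone that lowers the receptor's affinity for hormone and is a widely used marker of glucocorticoid exposure (chr17:28618058-28737521, minus strand). It measured 21.2, 21.6 and 16.9 CPM in WT females and 11.1, 15.99 and 14.7 CPM in KO females. It reached 107, 134 and 88.7 CPM in WT males and 93.9, 72.4 and 131 CPM in KO males. Every male was thus above every female, KO females were all below WT females, and the male groups overlapped. Males exceeded females 5.52-fold in WT (log2 fold change 2.46, SE 0.22, adjusted p = 3.0e-06 in edgeR) and 7.11-fold in KO (2.83, SE 0.23, adjusted p = 1.3e-06). Against WT, the KO value differed by -0.52 on the log2 scale in females, which edgeR did not call (adjusted p = 0.078, SE 0.22). In males it differed by -0.15, with an SE of 0.21 (adjusted p = 0.85). The female difference was called by DESeq2 (adjusted p = 0.033) and by edgeR without the low-count filter (adjusted p = 0.029), with only the groups compared (0.028), without the 3 adipocyte-rich libraries (0.032) and without KO female replicate 2 (-0.67, adjusted p = 0.04996).

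Tsc22d3 encodes GILZ, a leucine zipper protein through which glucocorticoids restrain inflammatory signalling (chrX:139440091-139501408, minus strand). WT females had 28.4, 23.2 and 31.0 CPM and KO females 18.6, 22.1 and 18.2 CPM. WT males had 20.6, 24.6 and 18.1 CPM, and KO males 23.3, 44.4 and 37.5 CPM. The KO females were below all WT females, and KO male replicates 2 and 3 were the 2 highest libraries of the 12. KO against WT gave a log2 fold change of -0.49 in females (adjusted p = 0.074 in edgeR). The male value was 0.74 (adjusted p = 0.17), and each had an SE of 0.20. Neither was called, but their difference, the interaction, was (-1.22, SE 0.28, adjusted p = 0.011). The female difference was called by DESeq2 (adjusted p = 0.039) and by edgeR without the low-count filter (0.024), with only the groups compared (0.016), with the deposited normalization factors (0.049) and without WT female replicate 2 (-0.65, adjusted p = 0.0498). The male difference was called by DESeq2 (adjusted p = 0.019) and by edgeR without the low-count filter (0.011) and without KO male replicate 1 (0.96, adjusted p = 0.010). In KO glands males exceeded females 1.79-fold (adjusted p = 0.0048), and in WT glands the difference was -0.38 on the log2 scale (adjusted p = 0.15). The 2 high KO males were the adipocyte-rich ones, and all 6 adipocyte markers had a called interaction in the same direction. Without the 3 adipocyte-rich libraries the interaction was -0.58 (adjusted p = 0.19 in edgeR), the KO-male difference 0.15 (adjusted p = 1) and the sex difference in KO 0.28 (adjusted p = 0.32), whereas the female value stayed at -0.43 (adjusted p = 0.064). The part of the adipocytes in the result was not tested beyond this. Macrophage markers were higher in KO males too (62.8 to 108 CPM, against 48.6 to 59.2 CPM in WT males). So were fibroblast markers (408 to 737 CPM against 325 to 369 CPM) and blood markers (2.89 to 9.86 CPM against 1.45 to 1.73 CPM).

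**Figure D3:**
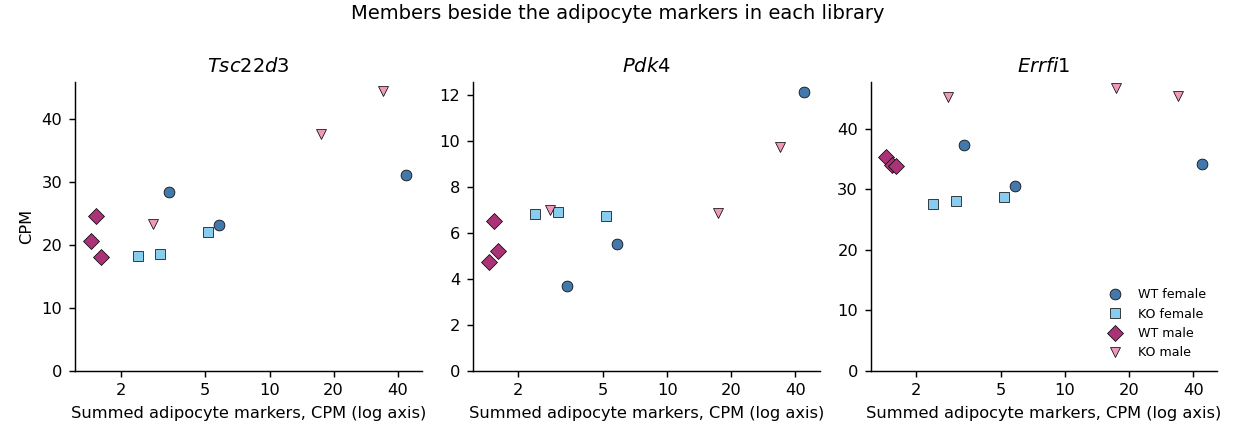
Tsc22d3, Pdk4 and Errfi1 in CPM (vertical axes, from 0) against the summed CPM of 6 adipocyte markers (log axis), 1 point per library. KO male replicates 2 and 3 and WT female replicate 3 lie at 17.4 CPM or more of adipocyte markers, and the highest values of Tsc22d3 (44.4 CPM, KO male replicate 2) and Pdk4 (12.1 CPM, WT female replicate 3) are among these 3, while Errfi1 is at 45.4 to 46.8 CPM in all 3 KO males.

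Errfi1 encodes MIG6, which binds the epidermal growth factor receptor and blocks its kinase (chr4:150938376-150955402, plus strand). It stood at 37.4, 30.5 and 34.1 CPM in WT females and at 28.2, 28.7 and 27.6 CPM in KO females. Males had 35.4, 34.03 and 33.9 CPM in WT and 45.4, 45.4 and 46.8 CPM in KO. In females all KO glands lay below the WT glands, and in males all KO glands lay above them, with little spread inside the KO groups. Errfi1 fell by 0.27 on the log2 scale in KO females (SE 0.082, adjusted p = 0.021 in edgeR), while the difference in males was 0.41 (SE 0.082, adjusted p = 0.073). The interaction was -0.68 (SE 0.12, adjusted p = 0.0040), and without the 3 adipocyte-rich libraries it was as large, -0.71, with an adjusted p of 0.094. Males exceeded females in KO glands (log2 fold change 0.70, adjusted p = 2.8e-05) and not in WT glands (0.02, adjusted p = 0.89). KO male replicate 1, with 2.82 CPM of adipocyte markers, had the same Errfi1 level as the other 2 KO males. The female call was lost with upper-quartile normalization (-0.17, adjusted p = 0.13), with the deposited normalization factors (-0.19, adjusted p = 0.20), without the low-count filter (-0.28, adjusted p = 0.067) and without the 3 adipocyte-rich libraries (-0.31, adjusted p = 0.060). The male value passed when every library had to hold 10 counts (0.44, adjusted p = 0.039) and without KO male replicate 1 (0.42, adjusted p = 0.028). Of 9 tested genes for the EGF receptor family and its ligands, edgeR called Erbb4 alone between genotypes, lower in KO females (-0.69, adjusted p = 0.010), where 36.9% of all genes were called. In KO males Erbb4 was at -0.72 (adjusted p = 0.15), and DESeq2 called 1 of the 9 genes. Egf itself was far higher in males (log2 fold change 6.55 in WT, adjusted p = 1.4e-07 in edgeR). EGF is a known product of the granular convoluted tubules.

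Sgk1, the effector of the group, encodes a kinase that raises sodium transport by keeping epithelial sodium channels at the cell surface (chr10:21758083-21875802, plus strand). Its level was 33.2, 27.9 and 33.6 CPM in WT females and 29.4, 32.6 and 21.4 CPM in KO females. WT males had 189, 309 and 194 CPM and KO males 200.4, 132 and 171 CPM. Every male library was above every female library, the lowest male at 132 CPM and the highest female at 33.6 CPM, and genotypes overlapped in both sexes. The sex difference was 7.31-fold in WT (log2 fold change 2.87, SE 0.23, adjusted p = 1.1e-06 in edgeR) and 6.03-fold in KO (2.59, SE 0.23, adjusted p = 2.5e-06). KO against WT gave -0.18 in females (adjusted p = 0.54) and -0.46 in males (adjusted p = 0.44). The 3 subunit genes of the epithelial sodium channel, Scnn1a, Scnn1b and Scnn1g, were higher in males as well, at 1.32, 2.10 and 1.89 on the log2 scale in WT and 0.74, 1.66 and 1.32 in KO. Nedd4l, whose ligase removes that channel and is inhibited by SGK1, rose in KO females (0.60, adjusted p = 0.0093). Of the paralogs, Sgk3 differed by -0.38 between WT males and females (adjusted p = 0.17) and Sgk2 was at 0.02 CPM or less in the group means.

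Klf9 and Zbtb16 are transcription factor genes. Klf9 encodes a zinc finger factor that is induced rapidly by glucocorticoids and also follows the daily clock (chr19:23118187-23148497, plus strand). WT females had 156, 162 and 179 CPM, KO females 109, 127 and 119 CPM. WT males had 73.3, 91.3 and 78.0 CPM, KO males 81.2, 83.3 and 80.6 CPM. The groups fell into 3 levels without overlap, WT females above KO females above both male groups. Klf9 fell by 0.48 on the log2 scale in KO females (SE 0.11, adjusted p = 0.0049 in edgeR), a 28.4% reduction that held in all 16 alternatives, while in males the value was 0.01 (SE 0.11, adjusted p = 0.98). Its interaction was -0.50 (SE 0.16, adjusted p = 0.035), and the call was lost in 7 of 21 alternatives, among them those without WT male replicate 1 (adjusted p = 0.092), WT male replicate 3 (0.079), KO male replicate 2 (0.067) or KO male replicate 3 (0.066). Klf9 was 2.04-fold lower in WT males than in WT females (-1.03, SE 0.11, adjusted p = 1.4e-05) and 1.45-fold lower in KO males than in KO females (-0.53, adjusted p = 0.0019). The call in KO glands was lost with the deposited normalization factors (-0.29, adjusted p = 0.069) and without the 3 adipocyte-rich libraries (-0.51, adjusted p = 0.059). Acinar markers stood in a similar order, at 375997 to 596376 CPM in WT females, 218073 to 260206 CPM in KO females and 77912 to 143660 CPM in males. Of the 8 acinar markers 3 were called lower in KO females, where 19.3% of all genes and 3386 of 14181 protein-coding genes were. The part of the acinar markers in the Klf9 result was not tested.

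Zbtb16 encodes PLZF, a repressor that glucocorticoids induce strongly in many cells (chr9:48563141-48748664, minus strand). WT females spread widely, at 15.7, 6.48 and 4.01 CPM, and KO females had 17.4, 12.4 and 19.7 CPM. WT males had 21.2, 21.1 and 14.1 CPM and KO males 12.3, 17.7 and 24.6 CPM. All 4 groups overlapped except that 2 WT females lay below every other library. KO females differed from WT females by 0.90 on the log2 scale, which edgeR did not call (adjusted p = 0.092, SE 0.40). In males the value was -0.05, with an SE of 0.39 (adjusted p = 0.98). Without WT female replicate 1 the female value was 1.59 (adjusted p = 0.0026) and the interaction 1.60 (adjusted p = 0.014). With all libraries kept, the female value was also called with the deposited normalization factors (1.39, adjusted p = 0.015) and without the low-count filter (0.89, adjusted p = 0.019). The sex difference in WT was called at 1.097 (SE 0.40, adjusted p = 0.046) but lost in 9 of 16 alternatives. This difference was 0.75 without the 3 adipocyte-rich libraries and was not called there. It was 0.75 without WT female replicate 3 (adjusted p = 0.15), 0.91 without WT female replicate 2 (adjusted p = 0.15), 1.00 without WT male replicate 1 (adjusted p = 0.12) and 1.00 without WT male replicate 2 (adjusted p = 0.10), and 1.80 without WT female replicate 1 (adjusted p = 0.0012).

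Pdk4 encodes the kinase that switches off pyruvate dehydrogenase and so spares glucose in fasting (chr6:5483097-5496339, minus strand). It was low in the SMG, at 3.68, 5.52 and 12.1 CPM in WT females and 6.93, 6.75 and 6.82 CPM in KO females. WT males had 4.72, 6.52 and 5.23 CPM and KO males 6.99, 9.76 and 6.89 CPM. The KO females were close together, the WT females were far apart, and all KO males were above all WT males. No contrast was called for Pdk4 in edgeR, and KO against WT gave -0.05 on the log2 scale in females (adjusted p = 0.92) and 0.52 in males (adjusted p = 0.58), each with an SE of 0.32. The 12.1 CPM belonged to WT female replicate 3, which had the most adipocyte marker RNA, and without it the female value turned to 0.54. The other kinase genes Pdk1 (-0.47, adjusted p = 0.0081) and Pdk3 (-0.47, adjusted p = 0.022) fell in KO females, as did the genes of the enzyme they act on, Pdha1 (-0.63, adjusted p = 0.0012), Pdhb (-0.61, adjusted p = 4.9e-04) and Dlat (-0.57, adjusted p = 0.0019). The Pdk3 call was lost without the 3 adipocyte-rich libraries (-0.39, adjusted p = 0.10). Of 11 fuel-use genes 5 fell in KO females, where 19.3% of all genes and 3386 of 14181 protein-coding genes fell. In KO males 0 of the 11 were called by edgeR or by DESeq2, and 2 had an unadjusted p under 0.05 in edgeR.

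Mt1 and Mt2 encode metallothioneins, small cysteine-rich proteins that bind zinc and copper and are induced by metals as well as by glucocorticoids. They lie next to each other at chr8:94905710-94906955 and chr8:94898819-94900207, both on the plus strand, and reads common to such similar genes are divided between them by estimation. Mt1 was at 12.3, 13.5 and 13.6 CPM in WT females, 11.1, 12.3 and 10.5 CPM in KO females, 29.2, 26.0 and 31.9 CPM in WT males and 32.3, 27.6 and 26.3 CPM in KO males. Mt2 was at 5.06, 4.22 and 4.59 CPM, 2.84, 4.87 and 2.85 CPM, 8.84, 7.30 and 11.6 CPM, and 9.71, 8.90 and 8.26 CPM in the same order of groups. Every male exceeded every female for both genes, and the ratio of Mt1 to Mt2 stayed between 2.43 and 3.92 over the 12 libraries. The sex difference in Mt1 was 2.22-fold in WT (log2 fold change 1.15, SE 0.11, adjusted p = 4.8e-06 in edgeR) and 2.54-fold in KO (1.34, SE 0.11, adjusted p = 1.5e-06). For Mt2 it was 2.00-fold in WT (1.00, SE 0.21, adjusted p = 0.0026) and 2.53-fold in KO (1.34, SE 0.21, adjusted p = 3.0e-04). With the deposited normalization factors the WT value for Mt2 was 0.67 and was not called (adjusted p = 0.056). Genotype differences were -0.21 for Mt1 (adjusted p = 0.15) and -0.39 for Mt2 (adjusted p = 0.18) in females and -0.02 and -0.05 in males (adjusted p = 0.97 and 0.96). With the deposited normalization factors Mt1 was called in females (-0.39, adjusted p = 0.013) and so was its interaction with sex (-0.52, adjusted p = 0.026). Without KO female replicate 2 the Mt2 value in females was -0.75 and was called (adjusted p = 0.0099), and its interaction with sex too (-0.73, adjusted p = 0.042). Among genes of metal handling, the zinc importer gene Slc39a14 was higher in males (1.51 in WT and 1.54 in KO). Of 5 such genes tested 2 fell in KO females in edgeR, where 19.3% of all genes fell. They were the zinc exporter gene Slc30a1, another target of MTF1 (-0.59, adjusted p = 0.0090), and Slc39a10 (-0.54, adjusted p = 0.015). The Slc30a1 call was lost without the 3 adipocyte-rich libraries (-0.48). Mt3 was at 0.024 CPM or less in the group means and Mt4 was at 0 in every group.

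More members were called between the sexes than between the genotypes. In WT glands 7 of 10 members were called between males and females, 5 higher and 2 lower in males, against 36.5% of all genes (20.5% higher and 16% lower). In KO glands 7 members were called, 6 higher and 1 lower, against 43.5% of all genes (23.2% higher and 20.3% lower). The median male against female log2 fold change of the members was 0.51 in WT and 0.77 in KO. Over all genes it was 0.06 and -0.02, and over protein-coding genes 0.02 and 0.08. In WT glands 6 members, 4 higher and 2 lower in males, had libraries of the 2 sexes that did not overlap, as had 47.7% of all genes. In KO glands 7 members, 6 higher and 1 lower, did not overlap, against 54.8% of all genes. Fkbp5, Sgk1, Mt1 and Mt2 were higher in males without overlap in both genotypes. Granular convoluted tubule markers moved with these 4 genes, at 51085 to 92311 CPM in males against 4369 to 9115 CPM in females. Of the 6 markers, 5 were called higher and 1 lower in males of each genotype. Basal and myoepithelial markers (282 to 438 CPM in males against 115 to 188 CPM in females) moved with them too. So did striated and excretory duct markers (341 to 415 CPM against 201 to 297 CPM). The part of these markers was not tested.

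**Figure D4:**
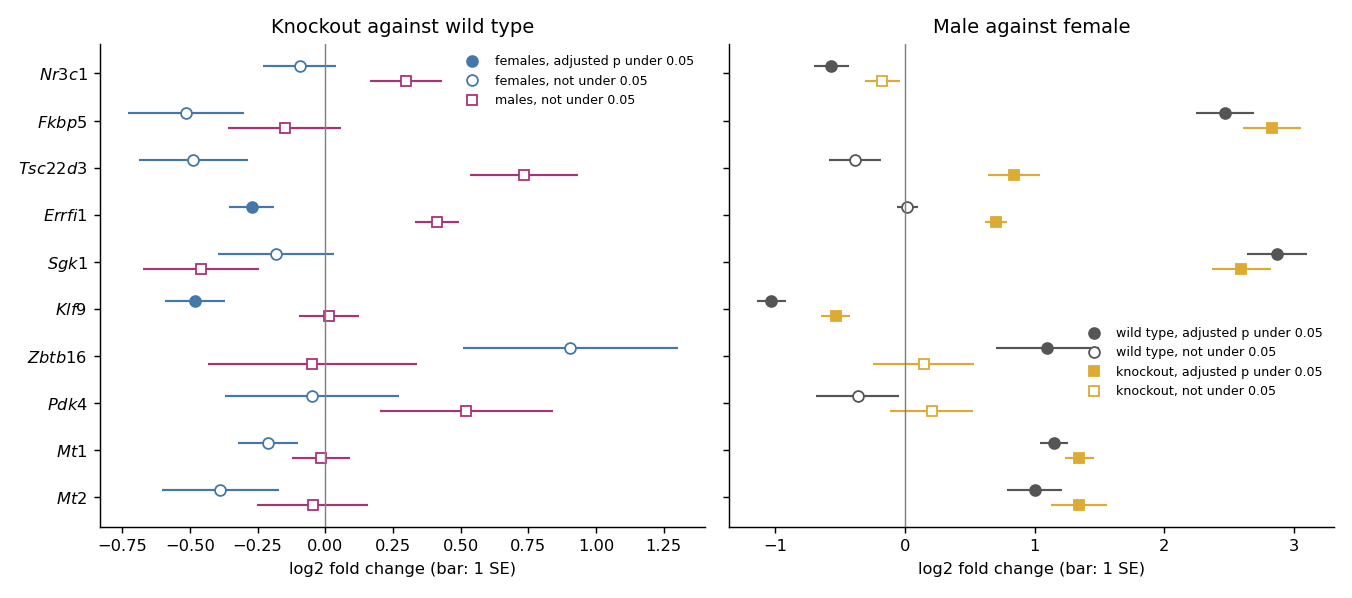
Log2 fold changes of the 10 members for KO against WT (left, by sex) and male against female (right, by genotype), with bars of 1 SE and filled symbols where edgeR's adjusted p is under 0.05. Klf9 and Errfi1 in females are the only filled symbols on the left, whereas 7 members in each genotype are filled on the right.

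Of 34 further glucocorticoid targets 32 were tested, and 3 rose and 4 fell in KO females. These 7 of 32 are a smaller share than the 36.9% of all genes called there, and the list had a median log2 fold change of -0.03. Mertk, a receptor for dying cells (0.97, adjusted p = 1.3e-04 in edgeR), Arrdc2 (0.77, adjusted p = 0.0099) and Cebpd (0.45, adjusted p = 0.046) rose, and Cebpb (-0.51, adjusted p = 0.014), the NF-kappaB inhibitor gene Nfkbia (-0.45, adjusted p = 0.022), Klf15 (-0.43, adjusted p = 0.041) and Anxa1 (-0.55, adjusted p = 0.047) fell. Without the 3 adipocyte-rich libraries 2 rose and 3 fell, and the edgeR calls of Cebpd (0.46, adjusted p = 0.086), Cebpb (-0.41, adjusted p = 0.071) and Anxa1 (-0.49, adjusted p = 0.056) were lost. In KO males 1 of the 32 rose, Rhob (0.77, adjusted p = 0.047), and the median was 0.34 against -0.04 over all genes. In KO males 24 of the 32 had a value above 0, 13 had an unadjusted p under 0.05 in edgeR, and DESeq2 called 6. Over all 17893 genes 7602 had a value above 0 and 2056 an unadjusted p under 0.05 in edgeR. DESeq2, run without the low-count filter, called 388 of 30808 genes. Without the 3 adipocyte-rich libraries the median of the 32 in males was 0.13 against -0.02 over all genes, 21 had a value above 0, 5 had an unadjusted p under 0.05, and 0 were called by edgeR, Rhob included (0.61, adjusted p = 1). Adipocyte markers were higher in KO males (2.82 to 33.98 CPM, against 1.45 to 1.61 CPM in WT males). So were the macrophage, fibroblast and blood markers given above, and the part of all these markers was not tested beyond this. Dusp1, a classic target that switches off MAP kinases, was at 3.41 CPM in WT females, 6.02 in KO females, 3.70 in WT males and 9.22 in KO males on average and was not called in either sex (adjusted p = 0.17 and 0.24). Between the sexes in WT, 9 of the 32 were higher and 6 lower in males (20.5% and 16% of all genes), the former led by Lcn2 (log2 fold change 5.66, adjusted p = 1.0e-05 in edgeR). In KO glands 11 were higher and 3 lower (23.2% and 20.3% of all genes). Of 11 immediate early genes, which respond within minutes to handling or injury, 0 were called between genotypes in either sex by edgeR. An unadjusted p under 0.05 in edgeR was found for 1 in females and 5 in males, against 8290 and 2056 of all 17893 genes. DESeq2 called 0 of the 11 in females and 2 in males, against 6827 and 388 of 30808 genes. Fos was at 1.92, 13.8 and 1.96 CPM in the KO males and at 0.864, 1.01 and 0.799 CPM in the WT males, so that KO male replicate 2 stood far above the rest. Between KO males and KO females, 10 of the 11 were called higher in males and 1 lower, where 23.2% of all genes were higher and 20.3% lower. The median of the 11 in that comparison was 1.49 on the log2 scale. It was 0.97 without the 3 adipocyte-rich libraries, a fit in which KO males are 1 mouse.

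The daily clock was examined because glucocorticoid levels follow the time of day. Bmal1, which peaks in opposite phase to Dbp, ran from 0.758 to 1.03 CPM in WT females, 7.72 to 10.7 in KO females, 1.12 to 1.29 in WT males and 7.21 to 11.3 in KO males. Dbp ran from 75.3 to 109 CPM in WT females, 11.8 to 18.4 in KO females, 42.5 to 46.4 in WT males and 4.09 to 5.95 in KO males. The genotypes did not overlap for either gene in either sex, and of 19 clock genes 3 were called higher and 13 lower in KO females, and 3 higher and 9 lower in KO males. Over all genes 17.6% were called higher and 19.3% lower in KO females, and 0.235% were called in either direction in KO males. The fit without the 3 adipocyte-rich libraries leaves 1 KO male. In it the median of the 19 in KO males was -0.63 on the log2 scale, against -0.55 with all libraries. Over all genes that fit had a median of -0.02 in KO males. In KO females the median of the 19 was -0.95 there, against -0.91 with all libraries. The clock contrast, log2 Dbp minus log2 Bmal1, was 6.38 to 7.01 in WT females, 0.23 to 1.25 in KO females, 5.002 to 5.29 in WT males and -1.02 to -0.58 in KO males. Clock phase and genotype therefore cannot be told apart in these groups, and no hour can be assigned to any mouse. Per2 and Nr1d1 fell in both sexes, Per2 by 1.71 on the log2 scale in females and 1.75 in males and Nr1d1 by 0.73 and 0.87. Without the 3 adipocyte-rich libraries the male calls of Per2 (-2.66, adjusted p = 0.12 in edgeR) and Nr1d1 (-0.97, adjusted p = 1) were lost, while those of Dbp (adjusted p = 0.0038) and Bmal1 (adjusted p = 6.5e-04) were kept. Per1, which is both a clock gene and a direct target of the receptor, behaved differently, at 31.4 to 47.4 CPM in WT females, 38.6 to 79.4 in KO females, 23.4 to 43.5 in WT males and 28.1 to 32.6 in KO males, with no genotype call in either sex (adjusted p = 0.084 and 0.91 in edgeR).

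Since the clock contrast differed between genotypes, its relation to each member was examined as deviations from group means over the 12 libraries. Pearson's r ranged from -0.39 (Mt2) to 0.23 (Pdk4) and Spearman's rho from -0.35 (Sgk1) to 0.17 (Zbtb16), and no relation passed in a two-sided exact permutation test over 1296 arrangements within groups (Benjamini-Hochberg adjusted p = 0.94 for r in each of the 10 members, 0.92 or 0.99 for rho). Without KO male replicates 1 and 2, the libraries farthest from the median contrast, r ranged from -0.54 (Sgk1) to 0.34 (Pdk4). They were picked by the contrast itself, not by the deviation from the group mean, and the KO male left has no deviation. The weight of single libraries in these relations was therefore not tested. Within a group the contrast spanned 0.29 to 1.02, so that a relation over a full day was not tested. The interaction with sex was not called for Dbp (0.60, adjusted p = 0.088 in edgeR) or Bmal1 (0.58, adjusted p = 0.14). Of the 19 clock genes 4 had a called interaction in edgeR, where 25.7% of all genes had one. They were Per3 (1.14, adjusted p = 0.013), Cry1 (-1.10, adjusted p = 0.013), Bhlhe40 (-1.17, adjusted p = 0.0036) and Bhlhe41 (-0.998, adjusted p = 0.0031). These calls were lost without the 3 adipocyte-rich libraries, a fit in which KO males are 1 mouse. The list's median interaction was -0.04 there, against 0.04 with all libraries.

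**Figure D5:**
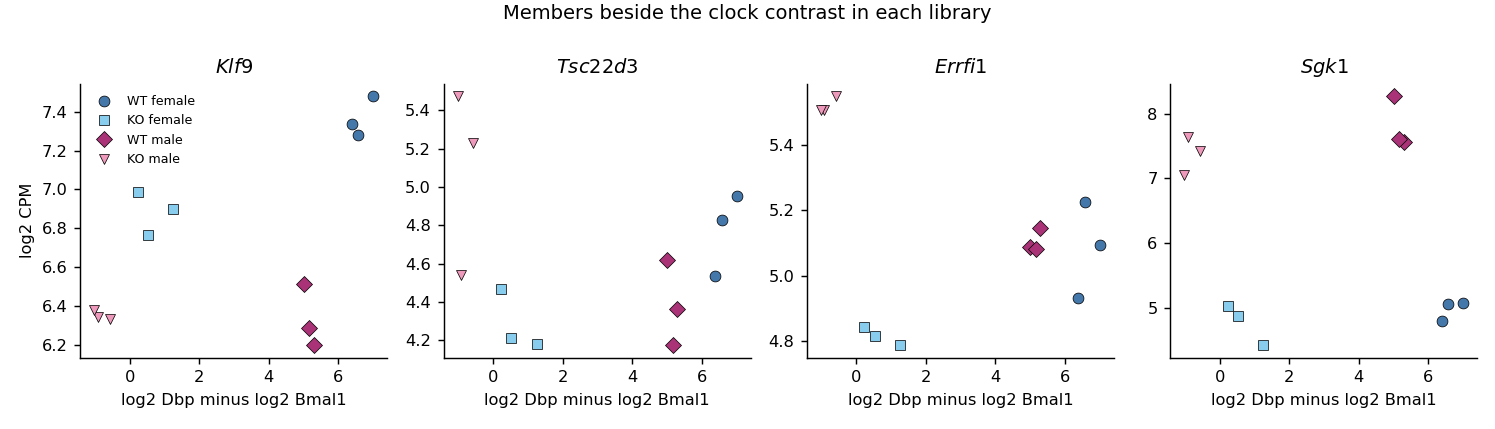
Log2 CPM of Klf9, Tsc22d3, Errfi1 and Sgk1 (vertical axes) against the clock contrast, log2 Dbp minus log2 Bmal1 (horizontal axes), 1 point per library. KO libraries lie at 1.25 or below and WT libraries at 5.002 or above, with no library between them.

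Over the 12 libraries the members fell into a few patterns, given here as a description of libraries that share sex, genotype and depth. Fkbp5, Sgk1, Mt1 and Mt2 varied together, with Pearson's r of log2 CPM of 0.90 to 0.97 in every pair, and Klf9 ran opposite to them, at -0.71 to -0.84. Tsc22d3 was closest to Errfi1 (0.73) and Nr3c1 to Klf9 (0.78), while Pdk4 reached 0.45 at most with any other member. Among 14181 protein-coding genes, those most alike were Slc41a3 (0.99) and Colgalt1 (0.99) for Sgk1, Tmem37 (0.99) and Cyp2b10 (0.99) for Fkbp5, Iqgap1 (0.99) and Enc1 (0.99) for Mt1, Stk4 (0.97) and Bcl2l11 (0.97) for Mt2, and Ust (0.99) and Sh3bgrl (0.99) for Klf9. Nr3c1 was most like Dhdh (0.95) and Eda (0.95), Zbtb16 like Zcchc2 (0.97) and Pspc1 (0.94), and Pdk4 like Klra9 (0.85) and A530016L24Rik (0.81). Tsc22d3 was most like Fth1 (0.93) and Ifngr1 (0.92) and Errfi1 like Ftl1 (0.92) and Bcl7b (0.92), the ferritin heavy and light chain genes standing first for both.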

How the data were processed

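Total RNA of 12 SMGs was sequenced as stranded, ribosomal RNA-depleted paired-end libraries (the labels name polyA RNA). Per the labels and methods, the authors estimated transcript abundance with Salmon 1.10.1 against Gencode M35 (GRCm39) and deposited estimated counts per gene and a table of normalized counts (signal, scaled by the authors with factors that differ between genes), used only as an alternative. Estimated counts (78.7% exactly whole as written) were rounded, and 55563 of 56065 identifiers had a name in Gencode M39. edgeR 4.0.16 was run with TMM normalization, filterByExpr, 1 mean per group and the quasi-likelihood test, with Benjamini-Hochberg adjustment over 17893 genes within each contrast and calls at 0.05. CPM are TMM-adjusted. DESeq2 1.42.0, other normalizations, filters and sample sets, a replicate block and each library left out were alternatives. The scripts were tested on simulated data. Named were all members, and of each list at most the 4 genes with the smallest adjusted p per direction and those set beside a member. Members, lists and rules were chosen with earlier results of these data known. The mice were 3 per group, and nothing in the labels pairs them by number. Some genes of these lists are not reported here by name.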

Additional observations from a re-analysis of the deposited data

Results flagged for a closer look

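In 3 members the effect of the knockout differed between females and males by the test of the interaction in edgeR. Over all genes the same test called 25.7%, with 12.4% of all genes at a negative value. The interaction (female minus male difference, log2) was -1.22 for Tsc22d3, -0.50 for Klf9 and -0.68 for Errfi1. Tsc22d3 and Errfi1 had values below 0 in females and above 0 in males, and Klf9 fell in females and stood at 0.01 in males. The Tsc22d3 value moved to -0.58 without the 3 adipocyte-rich libraries, and those of Klf9 and Errfi1 were -0.47 and -0.71 there. All 3 calls were lost in that fit (adjusted p = 0.19, 0.21 and 0.094 for Tsc22d3, Klf9 and Errfi1 in edgeR), in which 0 genes passed and 4529 had an unadjusted p under 0.05. The Klf9 call was lost in 7 of 21 alternatives.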

How the results depend on the processing

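Of 19 member calls, 11 kept their direction and side of the threshold in every alternative run, among them all Fkbp5, Sgk1 and Mt1 calls between the sexes and the Klf9 call in KO females. Of 850 member values under 22 alternatives, 754 kept direction and call, 25 gained a call, 26 lost one and 45 turned sign, none of the latter called in either fit. Genes called in KO males numbered 42, but 389 without the low-count filter, 388 with DESeq2 and 13 to 635 when 1 library was left out, the highest without KO male replicate 1. Leaving out 1 library moved the interaction count of 4604 to between 2385 and 5562, with 2385 without WT male replicate 1, 2898 without WT male replicate 3 and 2985 without KO male replicate 3. Leaving out the 3 adipocyte-rich libraries, an alternative chosen after seeing the data, gave 4289 genes in females, 6 in males, 0 for the interaction (4529 at an unadjusted p under 0.05, edgeR) and 4177 between the sexes in KO glands, and turned Pdk4 to 0.53 in females, 0.18 for the interaction and 0.24 between WT sexes, Mt1 and Mt2 in males to 0.15 and 0.073, and Zbtb16 between KO sexes to -0.39. Upper-quartile normalization raised the median of all genes by 0.10 in females (59.7% of calls higher, against 47.8%) and lowered it by 0.16 between KO sexes (38.0% against 53.3%). It turned Nr3c1 (0.011) and Pdk4 (0.060) in females, Mt1 in males (0.0039), Errfi1 between WT sexes (-0.064) and Zbtb16 between KO sexes (-0.013). The deposited factors turned Pdk4 in females (0.23), Zbtb16 (0.053), Mt1 (0.13) and Mt2 (0.043) in males, and Zbtb16 (-0.21) and Pdk4 (-0.10) between KO sexes. Mt1 in males was 0.0028 with RLE, 0.0068 without the 20 most abundant genes, 0.0094 with 10 counts in every library, 0.0036 with DESeq2 and 0.0050 with only the groups compared, and Errfi1 between WT sexes was -0.030, -0.011, -0.027 and -0.0046 with RLE, without the 20 genes, with DESeq2 and with only the groups compared. With 1 library left out the ranges of values that turned sign were -0.076 to 0.052 for Errfi1, -0.73 to 0.24 for Pdk4 between WT sexes, -0.28 to 0.0060 for Nr3c1 and -0.13 to 0.37 for Zbtb16 between KO sexes, -0.43 to 0.54 for Pdk4 in females, and -0.40 to 0.035 for Fkbp5, -0.050 to 0.11 for Klf9, -0.11 to 0.057 for Mt1, -0.19 to 0.15 for Mt2 and -0.32 to 0.17 for Zbtb16 in males. The relation to the clock contrast without the 2 farthest libraries turned to r = 0.0060 for Nr3c1, -0.31 for Fkbp5 and -0.028 for Zbtb16 (exact permutation, not called). The replicate block changed no member call and gave 6349, 44, 4354, 6293 and 7597 genes for females, males, the interaction, WT sexes and KO sexes, with Pdk4 in females at 0.029. Deviations of same-numbered mice from their group means were little correlated in most pairs (r of -0.11 to 0.05 between genotypes in females, -0.13 to 0.09 in males, -0.065 to 0.27 between sexes in WT and -0.035 to 0.089 in KO). No contrast had every r over 0.1, and the labels give the numbers no shared origin. The cause of these shifts was not tested.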
